A study of Cavia porcellus with 24 samples.

Results

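The cytosines described here were those with few other measured cytosines around them. A member was a cytosine listed for both hippocampus and whole blood, with at least 20 reads in all 4 groups and at most 5 other listed cytosines of either strand within 1000 bp on the same scaffold. In all, 345813 cytosines met this rule, which was 13.5% of the 2564116 cytosines listed for both tissues and 14.8% of the 2342490 with 20 reads in all groups. They lay at 320714 CpGs on 1191 scaffolds of the cavPor3 build, and 25099 of these CpGs had both strands among the members. The rule counted measured cytosines and not the letters of the genome, because a genome of this build was not used here. A scarcity of listed neighbours can therefore come from CpG-poor DNA or from CpGs that the libraries did not cover, and sequence, genes and repeats around the members were not analysed. The median over all cytosines listed for both tissues was 22 neighbours (quartiles 9 and 46).

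The animals were female Hartley guinea pigs at postnatal day 14, 1 from each litter, and hippocampus and whole blood were taken from the same animals. The mothers of 6 animals received 3 courses of 1 mg/kg betamethasone, a synthetic glucocorticoid (sGC), on days 40/41, 50/51 and 60/61 of gestation. The mothers of the other 6 received saline (Con). Reduced representation bisulfite sequencing (RRBS) gave the share of reads in which a cytosine had resisted bisulfite conversion, which is its methylation level. The deposited reads were summed over the 6 animals of a group, so that 4 pools, sGC and Con in each tissue, gave 1 value each. No spread between animals can be given, and every test below compares pools of reads, takes the reads as independent and cannot tell sGC from other differences between the animals of both groups, alleles included. Both tissues hold mixtures of cell types, and the DNA of the tissues was extracted with different kits, so that differences of cell type, of cell proportion and of kit cannot be told apart in a comparison of tissues.

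In mammalian genomes, most CpGs outside CpG islands carry methylation that DNMT1 copies onto the new strand after replication and that DNMT3A and DNMT3B set in the first place. CpG islands, which are dense in CpG and often hold promoters, are mostly unmethylated. Single CpGs far from islands are known as open sea, and their methylation is high in most tissues but lower at enhancers and in other cell type-specific regions. TET enzymes oxidize methylated cytosines, and hydroxymethylation, which bisulfite reads as methylation, is more abundant in brain than in blood, so that the levels in hippocampus are of both marks together.

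The isolated cytosines were mostly highly methylated in both tissues, and more so in blood. Their mean level was 77.5% in Con hippocampus and 83.2% in Con blood, with medians of 86.7% and 91.0%. With sGC, the means were 78.9% and 84.1%, and the medians 87.8% and 92.2%. A level of at least 80% was found at 63.6% of the members in Con hippocampus, 66.0% in sGC hippocampus, 77.7% in Con blood and 79.9% in sGC blood. The quartiles were 70% and 94.0% in Con hippocampus and 81.8% and 95.4% in Con blood. Levels under 20% were uncommon, at 4.57% of the members in Con hippocampus, 3.88% in sGC hippocampus, 4.21% in Con blood and 4.41% in sGC blood. The remaining members, at 31.9% of all in Con hippocampus and 18.1% in Con blood, had levels from 20% to under 80%. The median number of reads behind a level was 88 in Con hippocampus, 102 in sGC hippocampus, 85 in Con blood and 101 in sGC blood.

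The 1996677 other cytosines with 20 reads in all pools, which had more than 5 neighbours, had a different shape. Their mean was 52.6% in Con hippocampus and 57.4% in Con blood, and 33.8% and 32.7% of them lay under 20%. Isolated cytosines thus had a single tall peak at high levels where the others had a peak at each end of the scale.

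**Figure D1:**
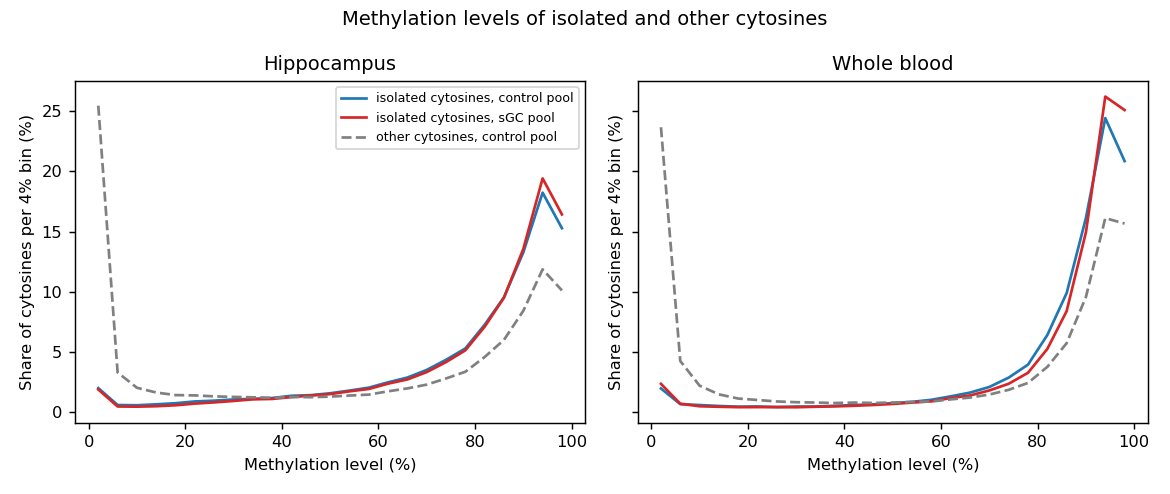
Share of cytosines (%, y axis) in bins of methylation level (%, x axis) in hippocampus and blood, for isolated cytosines of the Con and sGC pools (solid lines) and other cytosines of the Con pools (dashed). The low-methylation peak that held 33.8% of the others in hippocampus held 4.57% of the isolated cytosines.

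The level fell steadily with the number of listed neighbours. In Con hippocampus, the mean was 77.5% with 0 to 5 neighbours, 69.1% with 6 to 20, 49.0% with 21 to 50, 35.5% with 51 to 100 and 31.5% with over 100. In Con blood, the same bins had 83.2%, 74.5%, 53.6%, 39.6% and 35.6%, each above hippocampus. The share under 20% in Con hippocampus went from 4.57% to 14.4%, 38.1%, 54.2% and 57.7% along the bins. Within the members, in contrast, the number of neighbours made little difference, with means in Con hippocampus from 76.0% for the 6570 members with none to 78.2% for the 56254 with 2. Around the threshold, the 79612 members with 5 neighbours had 77.0% in Con hippocampus and 82.8% in Con blood, and the 61399 cytosines just outside, with 6, had 75.7% and 81.2%. Members whose pool with the fewest reads had 20 had 78.3% and 83.9%, and isolated cytosines with 19 there had 77.6% and 83.2%.

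**Figure D2:**
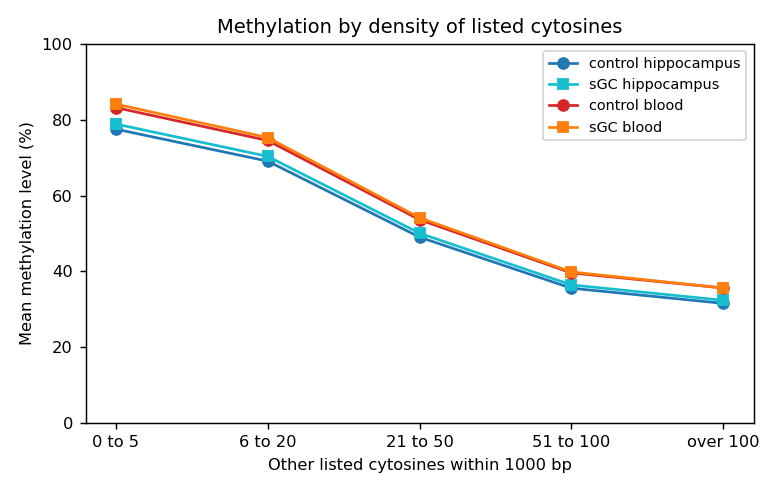
Mean methylation level (%, y axis) of cytosines grouped by the number of other listed cytosines within 1000 bp (x axis) in the 4 pools. In Con hippocampus the means run from 77.5% at 0 to 5 neighbours to 31.5% over 100, and in Con blood from 83.2% to 35.6%.

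Set side by side over the 4 pools, 193242 isolated cytosines (55.9%) were at 80% or more in every pool, against 36.2% of the others. A level under 20% in every pool was found at 8823 members (2.55%) and at 29.8% of the others. Many of the members with low levels stood beside cytosines that only 1 tissue's table listed: 4761 of the 8823 (54.0%) had more than 5 neighbours once both tables were counted, against 8.89% of those high in every pool. Among the 313454 members that kept at most 5 neighbours in that count, 4062 (1.30%) were low in every pool, and among the 32359 that did not, 14.7% were. Levels between 40% and 60% in all 4 pools, as an imprinted region with a single methylated parental copy would have, were rare, at 1399 members (0.405%) and 0.512% of the others.

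The most frequent pattern that set the tissues apart was an intermediate level in hippocampus and a high level in blood. In both exposure groups, 44706 members (12.9%) were between 20% and 80% in hippocampus and at 80% or more in blood, with means of 59.8% in Con hippocampus, 63.3% in sGC hippocampus, 88.9% in Con blood and 91.5% in sGC blood. The reverse pattern, intermediate in blood and high in hippocampus, was found at 7984 members (2.31%). Among the other cytosines, these patterns took 8.91% and 1.504%. A switch from low to high was rare: 396 members (0.115%) were under 20% in hippocampus and at least 80% in blood in both exposure groups, and 288 (0.0833%) the other way round. Such switches were as rare among the other cytosines, at 0.150% and 0.0805%.

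To compare the tissues, a member was called where the methylated and unmethylated reads of blood and hippocampus differed by Fisher's exact test (two-sided, Benjamini-Hochberg adjusted p under 0.05 over all cytosines listed for both tissues) and the levels by at least 5 percentage points. Blood was above hippocampus by a mean of 5.69 points in the Con pools (95% counting interval of ± 0.0191, which covers read sampling only) and 5.27 in the sGC pools (± 0.0177). In Con, 64.3% of the members were higher in blood and 34.8% lower, with a median of 2.70 points, so that a part of the members carried most of the mean. A difference of at least 20 points in either direction was found at 18.97% of the members in Con and 18.3% in sGC. In the others, the mean difference was 4.77 points in Con.

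In the Con and the sGC pools alike, which hold different animals, 53222 members (15.4%) were called higher in blood, beside 12.3% of all cytosines tested, and 13274 (3.84%) lower, beside 3.69%. Among the others, which have the same minimum of 20 reads in all pools, the shares were 12.7% and 3.92%. With a chi-square test divided by the excess of its median over all cytosines, 17759 members were called higher and 5157 lower. The excess among the members alone was larger than that used, at 4.14 in Con and 4.44 in sGC against 3.30 and 3.39. Shares over all cytosines were not computed for the corrected test. With Fisher's exact test, the median difference in Con was 30.5 points for members called higher and -34.5 for those called lower. By the same test, 8 members (0.00231%) were called in opposite directions in Con and sGC, against 0.00215% of the others. Members called higher in blood had mean levels of 50.7% in Con hippocampus and 84.0% in Con blood. Those called lower had 74.9% and 37.3%, whereas the 234624 called in neither exposure group had 84.5% and 85.9%. The calls of the Con pools were then read in the sGC pools. Of 67863 members called higher in blood in Con (16.0% of all cytosines tested were), 98.5% had the same direction in sGC, with a median of 27.1 points in Con and 23.9 in sGC. Of 17340 called lower (4.64% of all), 97.2% had the same direction, with medians of -29.4 and -27.8. Across the members, the difference between tissues in Con and that in sGC had a Pearson correlation of 0.891 (n = 345813 cytosines, which share fragments and animals and are not replicates). The level itself was less alike between the tissues among members than elsewhere: Con hippocampus and Con blood had r = 0.695 and Spearman's rho = 0.645 over the members, and 0.911 and 0.877 over the others, whose levels span a wider range.

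**Figure D3:**
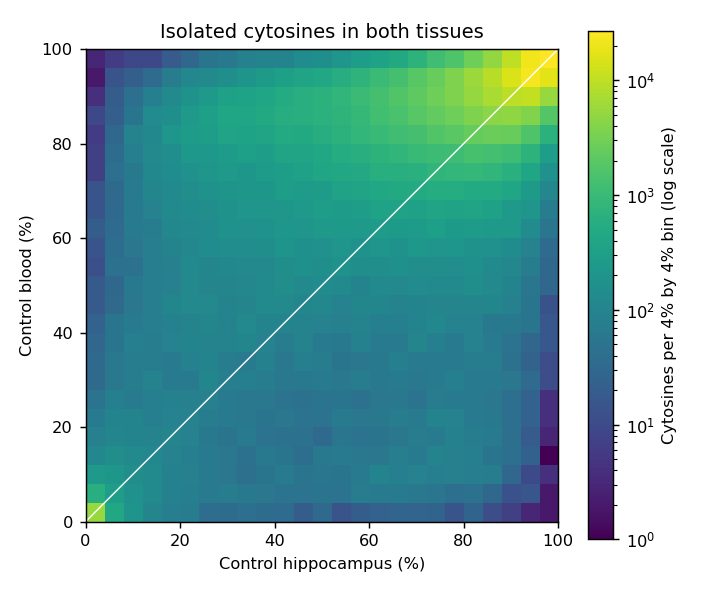
Isolated cytosines by level in Con hippocampus (%, x axis) and Con blood (%, y axis), with the number of cytosines in each cell given by colour on a log scale. Most lie in the upper right corner, and a band above the diagonal holds those intermediate in hippocampus and high in blood, 63381 (18.3%) in the Con pools.

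The members with the largest differences between tissues switched nearly completely. At DS562867.1, position 2702894 on the plus strand, 4 of 82 reads were methylated in Con hippocampus (4.88%) and 3 of 76 in sGC hippocampus (3.95%), against 52 of 53 in Con blood (98.1%) and 76 of 82 in sGC blood (92.7%). The neighbouring member 2702909 had 7.41%, 9.09%, 96.3% and 96.3% in the same order, and its opposite strand had 9.64%, 12.8%, 92.9% and 96.0%. Further members nearly unmethylated in hippocampus and methylated in blood were at DS562984.1, position 1733811, with 4.04%, 0.926%, 92.0% and 88.7%, at DS563015.1, position 2008370, with 6.58%, 10.8%, 94.0% and 98.8%, and at DS562865.1, position 29885173, with 4.88%, 5.75%, 92.2% and 95.7%. Blood lay above hippocampus in both exposure groups at each of these cytosines because the rule that named them asked for it.

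The reverse was clearest on DS562917.1. At position 8734435, on the plus strand, all 68 reads of Con hippocampus and 70 of 73 of sGC hippocampus (95.9%) were methylated, against 1 of 63 in Con blood (1.59%) and 0 of 72 in sGC blood, which allows up to 5.07% (Wilson). The members at 8734411 and 8734431 on the same stretch had 92.6% and 94.1% in Con hippocampus and 3.12% and 4.69% in Con blood. At DS562972.1, position 1001568, the levels were 93.1%, 94.6%, 2.38% and 0.847% in Con hippocampus, sGC hippocampus, Con blood and sGC blood, and at DS562879.1, position 14587026, they were 91.5%, 88.8%, 1.56% and 0%. Adjusted p-values of these 10 cytosines, Fisher's exact test, ran from 3.4e-57 to 5.1e-17 over both exposure groups. The members at 8734411, 8734431 and 8734435 lie close together with nearly equal reads, as do 2702894 and 2702909 of DS562867.1. Members of the same stretch cannot be taken as separate measurements.

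The members with the most reads, at positions 4180, 4149 and 4137 of the small scaffold DS565599.1, gave levels with little counting error. Their reads were far above the medians of 85 to 102 over the members, and the cause was not tested. The 3 positions lie close together with nearly equal reads (25548, 25500 and 25489 in Con hippocampus), so they cannot be taken as separate measurements. Position 4180 had 59.9% in Con hippocampus, 64.7% in sGC hippocampus, 81.0% in Con blood and 84.2% in sGC blood, from 25548, 38665, 26848 and 33795 reads. Position 4149 had 73.6%, 76.1%, 86.8% and 88.7%, and position 4137 had 56.5%, 59.3%, 81.4% and 84.5%. With this many reads, rises with sGC of 1.95 to 4.81 points passed the adjusted p in both tissues but not the 5 points, so that none was called.

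With sGC, the isolated cytosines were slightly more methylated in both tissues. The mean difference of sGC less Con was 1.35 points in hippocampus (± 0.0195, 95% counting interval) and 0.923 in blood (± 0.0174), with medians of 0.961 and 0.758. In hippocampus 58.1% of the members were higher and 41.5% lower with sGC, and in blood 57.0% and 42.7%. The central 98% of the differences ran from -15.6 to 20 points in hippocampus and from -15.0 to 17.4 in blood, and differences of at least 20 points in either direction were found at 1.40% and 0.936% of the members. Among the others, the mean difference was 1.07 points in hippocampus and 0.524 in blood. The order of members and others in hippocampus depended on the weighting: with cytosines weighted by their reads, the difference was 1.74 points in the members and 2.45 in the others in hippocampus, and 1.04 and 0.0134 in blood. Without weighting, the mean difference fell with the number of neighbours, from 1.35 points at 0 to 5 neighbours to 0.807 over 100 in hippocampus, and from 0.923 to 0.000835 in blood. The bins of neighbours were not computed with weighting by reads. The pools have 1 value each, so whether these mean shifts exceed the spread between animals cannot be tested.

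A call with sGC used the same Fisher's exact test and 5 points, adjusted over all cytosines listed for the tissue. In hippocampus, 291 members (0.0841%) were higher with sGC, beside 0.0729% of all cytosines tested, and 145 (0.0419%) were lower, beside 0.0391%. Their median differences were 23.2 and -28.8 points. In blood, 906 members (0.262%) were higher, beside 0.192% of all, and 394 (0.114%) were lower, beside 0.125%, with medians of 15.8 and -16.4. The shares of all cytosines include those with as few as 10 reads in a pool. Among the others with 20 reads in all pools, 0.0885% were called higher and 0.0477% lower in hippocampus, and 0.233% and 0.162% in blood, so that in hippocampus the members were above all cytosines and below these others. Most calls did not hold once the test was corrected for the excess of its statistic over all cytosines: a chi-square test so corrected called 49 members higher and 33 lower in hippocampus, and 75 and 53 in blood. The excess among the members alone was smaller than that used, at 1.42 in hippocampus and 1.51 in blood against 1.76 and 1.73. Shares over all cytosines were not computed for the corrected test.

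The called members were read in the tissue that had not been used for the call. This tissue comes from the same animals, so its repeat of a difference does not separate sGC from other differences between them. Of the 291 called higher in hippocampus, 274 (94.2%) were also higher in blood, with a median of 10.7 points there. Of the 145 called lower, 138 (95.2%) were lower in blood, with a median of -21.3. In the other order, 811 of the 906 called higher in blood (89.5%) were higher in hippocampus, with a median of 7.34 points, and 357 of the 394 called lower (90.6%) were lower there, with a median of -10.0. Over all members, the differences in the tissues had the same sign at 53.6%, and over the others at 53.0%. Pearson's r between them was 0.127 and Spearman's rho 0.100 across the members, which are not replicates.

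Calls in both tissues in the same direction were made at 99 members for a rise (0.0286%) and 77 for a fall (0.0223%). The shares were 0.0244% and 0.0252% over all cytosines listed for both tissues, and 0.0262% and 0.0283% over the others. No member was called in opposite directions, nor was any of the others. The corrected chi-square test called 29 and 19 members. These 176 cytosines lay at 165 CpGs on 90 scaffolds and were 40.4% of the 436 called in hippocampus and 13.5% of the 1300 called in blood. Among the others, 523 were called higher and 566 lower in both tissues. These came from 1768 and 952 called in hippocampus and 4660 and 3233 in blood, so the overlap was of like size there. At the 176 members, the median absolute difference was 32.5 points in hippocampus and 30.3 in blood. The differences of the tissues lay a median of 5.50 points apart. The median absolute gap between blood and hippocampus at the 176 was 4.98 points in Con and 4.94 in sGC, against 6.06 and 5.68 over all members. Of the 176, 41 were called between the tissues in Con or sGC. Over all members, 234624 of 345813 were called in neither.

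**Figure D4:**
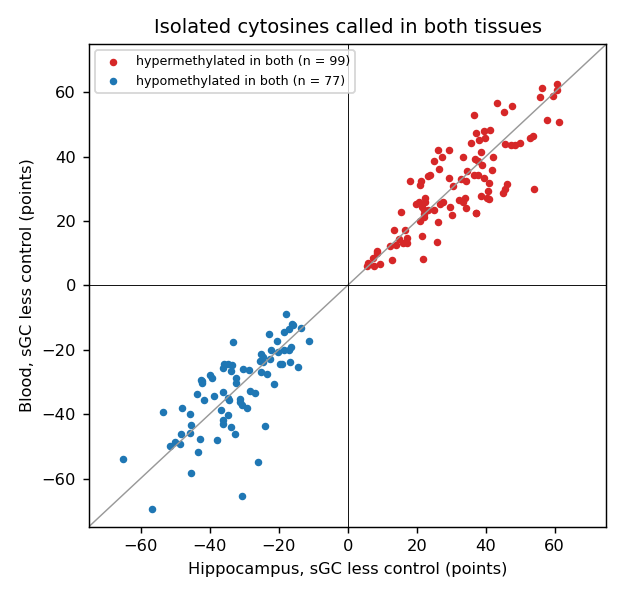
Difference of sGC less Con in hippocampus (x axis, percentage points) and blood (y axis, percentage points) at the 176 isolated cytosines called in both tissues, 99 with a rise and 77 with a fall. The rule of a call in both tissues leaves only points that are at least 5 points from 0 on both axes, and the grey line marks equal differences in both tissues.

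Ordered by the smaller of their differences in the tissues, the first of these moved from mostly unmethylated to mostly methylated in both. In a single tissue the largest differences among them were falls, of -65.2 points in hippocampus and -69.4 in blood, at cytosines given below with the falls. At DS562857.1, position 71882703 on the minus strand, 16 of 77 reads were methylated in Con hippocampus (20.8%), 97 of 119 in sGC hippocampus (81.5%), 15 of 54 in Con blood (27.8%) and 101 of 114 in sGC blood (88.6%). Its partner on the plus strand, 71882702, is a separate measurement of the same CpG and had 11.8%, 67.5%, 23.1% and 81.7%. Both strands had low levels in the Con pools and high levels in the sGC pools. The adjusted p (Fisher's exact test) was 2.9e-13 in hippocampus and 1.6e-11 in blood for the minus strand.

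At DS562968.1, position 2270969, the levels were 22.7%, 83.3%, 22.2% and 84.8% in Con hippocampus, sGC hippocampus, Con blood and sGC blood, from 128, 78, 90 and 99 reads. At DS562861.1, position 16182397, they were 20%, 79.4%, 23.1% and 82.1%. At DS562887.1, position 1874978, nearly all sGC reads were methylated, with 41.7%, 98.1%, 37.4% and 98.9%. At DS562896.1, position 4007516, the levels were 36.1%, 93.8%, 42.6% and 94.0%. The rise had the same size in blood and hippocampus to within 7 points at each of these. At DS562883.1, position 15971430, no read of 23 was methylated in Con hippocampus, which allows up to 14.3% (Wilson), and 22 of 36 (61.1%) were in sGC hippocampus, with 3.85% and 54.5% in Con and sGC blood from 26 and 22 reads.

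Large falls in both tissues were found at 3 of the 10 cytosines that the rule named. At DS562870.1, position 40713724, the levels were 87.2% in Con hippocampus, 30.5% in sGC hippocampus, 96.3% in Con blood and 26.9% in sGC blood. At DS562862.1, position 3530343, they were 87.2%, 35.9%, 86.2% and 36.2%, almost the same in both tissues. At DS562902.1, position 12923723, they were 86.5%, 21.3%, 58.8% and 4.76%, from 37, 47, 51 and 42 reads. On the same scaffold, position 12706718 fell from 72.2% to 7.14% in hippocampus (adjusted p 8.9e-06, Fisher's exact test) and had 53.5% and 8.70% in blood, where only 23 sGC reads were present and the adjusted p was 0.087.

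Some of the largest differences were called in a single tissue. At DS562908.1, position 8019921, Con and sGC blood had 95.2% and 36.1%, from 21 and 36 reads, whereas hippocampus had 89.7% and 88.0%. At DS562893.1, position 18552569, blood fell from 66.7% to 6.06% and hippocampus had 50% and 26.1%, with an adjusted p of 1.0 there. At DS562883.1, position 663162, hippocampus fell from 66.7% to 14.3%, from 24 and 35 reads and with an adjusted p of 0.05, just under the threshold before rounding, and blood had 56.7% and 50%. A call in a single tissue does not show that the tissues differ, and the test of that difference, on log odds ratios and adjusted over all cytosines listed for both tissues, gave adjusted p-values of 0.98 at these 3 cytosines. That test called 7 members (0.00202%), beside 0.0103% of all cytosines. At an unadjusted p under 0.05 it gave 17292 members (5.00%), against 4.22% of the others. A share of 5.00% is also what this threshold allows where nothing differs. The following falls, also among the 5 largest of a tissue, were in contrast called in both tissues. DS562966.1, position 3460324, had 56.0%, 2.38%, 44.4% and 5.13% in Con hippocampus, sGC hippocampus, Con blood and sGC blood. DS562870.1, position 41467114, had 45.2%, 0%, 65.4% and 7.14%. At DS562883.1, position 20954029, likewise called in both tissues, the levels were 46.6%, 16.0%, 84.1% and 18.6%. Blood was above hippocampus there by 37.5 points in Con and 2.64 in sGC, with an adjusted p of 0.75 for the test on log odds ratios of the difference between tissues.

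The size of the mean difference depended on the level. Because a difference and the level it is computed from share reads, the members were ordered by their mean level in the other tissue, which shares animals but no reads with it. The mean difference in hippocampus was -1.53 points (SE over cytosines 0.142) where blood lay from 5% to 10%, rose through 0.301 at 30% to 40% and 1.54 at 50% to 60%, was largest at 2.15 (SE 0.0509, n = 24625) where blood lay from 70% to 80%, and was 0.805 where blood lay above 95%. In blood, the mean difference was 0.152 points where hippocampus lay under 5%, was largest at 4.05 (SE 0.104, n = 7411) from 20% to 30%, and came down to 1.69 at 60% to 70% and 0.161 above 95%. Thus members intermediate in hippocampus had the larger rises in blood. Among the others, the hippocampus difference where blood lay from 5% to 10%, 10% to 20% and 20% to 30% was -0.137, 0.134 and 0.547 points, against -1.53, -1.02 and -0.502 in the members. Their largest difference was 2.45 points in hippocampus, where blood lay from 80% to 90%, and 2.34 in blood, where hippocampus lay from 30% to 40%. The SE is across cytosines, which share animals, and does not measure the spread between them.

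**Figure D5:**
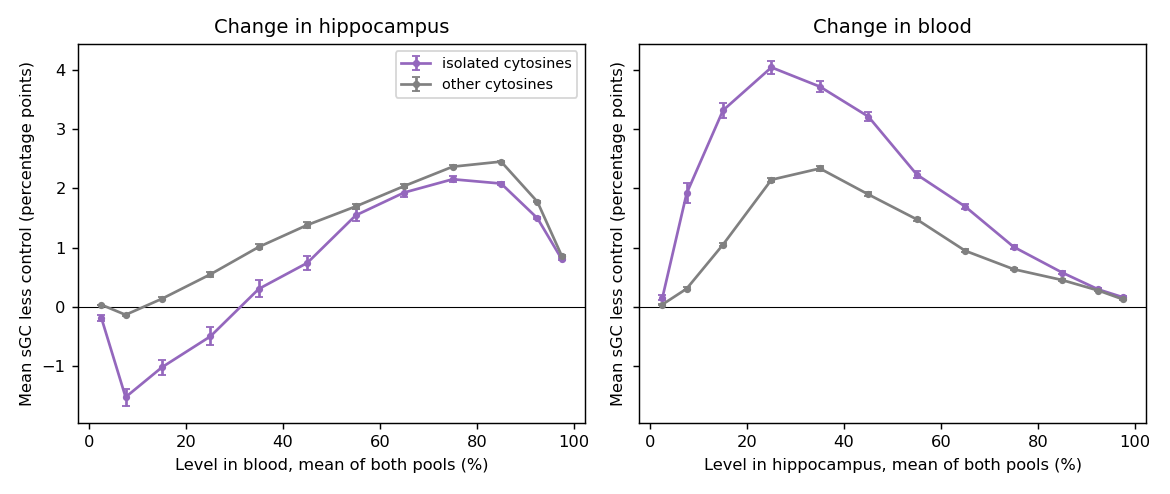
Mean difference of sGC less Con (percentage points, y axis) of isolated and other cytosines, in bins of the mean level in the other tissue (%, x axis), with bars for the SE over cytosines. In hippocampus the isolated cytosines peak at 2.15 points where blood lies from 70% to 80%, and in blood at 4.05 where hippocampus lies from 20% to 30%.

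Maintenance after replication keeps the strands of a CpG alike, and reads of the strands come from different DNA strands. Over the 25099 CpGs with both strands, the median absolute difference between strands was 3.26 points in Con hippocampus, 3.03 in sGC hippocampus, 3.04 in Con blood and 2.57 in sGC blood. The correlation of the strands was 0.951 to 0.961 in the 4 pools, and 207 to 383 CpGs differed by 20 points or more. The difference between tissues had the same direction on both strands at 73.7% of the CpGs in Con, and the difference with sGC at 53.7% in hippocampus and 55.0% in blood. Where either strand was called with sGC, 58 of 68 CpGs in hippocampus and 218 of 236 in blood had the same direction on both. All 17 and all 39 called on both strands had the same direction.

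Neighbouring members had like levels over short distances only. Successive members 1 to 50 bp apart, at different CpGs, had r = 0.831 in Con hippocampus over 125977 pairs, with a median absolute difference of 5.38 points. The correlation was 0.725 at 51 to 150 bp, 0.598 at 151 to 500 bp and 0.425 at 501 to 1000 bp, and was 0.0927 at 1001 to 10000 bp, where the median difference was 13.8 points. Single-end reads of the same RRBS fragment cover the nearest distances, so that reads are shared at short range. The members fell into 108482 groups more than 1000 bp apart, and neighbours within a group cannot be taken as independent.

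The mean differences had the same direction on the large scaffolds and in most windows. On each of the 123 scaffolds with at least 500 members, blood was above hippocampus in Con, by 2.43 to 11.4 points, and the mean was higher with sGC in hippocampus, by 0.663 to 2.29 points, and in blood, by 0.332 to 2.32. In windows of 1000000 bp with at least 50 members, 2171 in all, the mean level ran from 41.4% to 91.6% in Con hippocampus (median 78.5%) and from 57.1% to 95.5% in Con blood. Blood was above hippocampus in 2051 windows, and below it in 120. The sGC mean was above Con in 2074 windows and below in 97 for hippocampus, and above in 1962 and below in 209 for blood. All scaffolds and windows come from the same 4 pools of animals, and so are no repeat of the experiment.

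Some windows stood out in level. The first 1000000 bp of DS562930.1 had the lowest mean in Con hippocampus, 41.4% over 63 members, with 46.2% in sGC hippocampus, 69.6% in Con blood and 73.1% in sGC blood. On DS562909.1, from 10000000 to 10999999, the means were 46.8%, 51.6%, 69.97% and 73.3% over 72 members. The window of DS562863.1 from 44000000 to 44999999 had the opposite order, with 68.6%, 69.5%, 57.2% and 57.3% over 62 members. On DS562893.1 from 20000000 to 20999999 the tissues were alike and low, with 56.8%, 56.5%, 57.1% and 57.4% over 130 members. The 217 windows with the lowest Con hippocampus levels had a mean difference between tissues of 9.18 points in the sGC pools, against 4.65 in the others. A choice by low hippocampus level by itself favours a larger difference. The sGC pools are no independent check, because the windows' differences between tissues in Con and in sGC had r = 0.972.

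The study's own annotation of common changes gives gene names for 10 of the members, in 6 genes. The study chose that list on these samples, so the values are a description and do not support a direction. None of the 10 was called with sGC in both tissues by Fisher's exact test: position 30372722 in DSCAML1 was called in hippocampus (adjusted p 0.046) and position 16250396 in MEF2C in blood (adjusted p 2.8e-05). At 3 members in DSCAML1, a neuronal cell adhesion molecule, between positions 30372722 and 30372755 of DS562874.1, the mean level was 19.9% in Con hippocampus, 37.8% in sGC hippocampus, 83.6% in Con blood and 93.2% in sGC blood. At 2 members in IL6R, the receptor of interleukin-6, the means were 17.2%, 25.8%, 70.5% and 89.1%. At 2 members in MEF2C, a transcription factor of neurons, muscle and lymphocytes, they were 82.7%, 73.7%, 44.3% and 22.1%. The member in WDR91, an endosomal protein, had 70.5%, 64.8%, 10.9% and 2.86%, and the member in ZEB2, a transcription factor of the nervous system and blood, had 42.1%, 57.5%, 79.4% and 92.8%. The member in XRCC1, a DNA repair protein, had 61.8%, 43.3%, 66.0% and 84.6%, with opposite directions in the tissues, and the test of that difference gave an adjusted p of 0.98. The 5 genes other than XRCC1 had a difference between tissues larger than the difference with sGC in both tissues.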

How the data were processed

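RRBS was analysed from 24 samples in 4 groups of 6. Per the labels and the study's methods, the authors trimmed reads with Trim Galore, aligned them with Bismark 0.16.0 (SAMtools 1.7) to cavPor3 and ran MethPipe with batch as a covariate. The authors deposited counts, methylated and total reads per cytosine and strand, summed over the 6 animals of a group and not normalized. The reads summed to 269116901 to 323883199 per pool. An FDR column, from the study's own comparison, was not used. The tables were joined by scaffold, position and strand, with positions as deposited. Levels were read with Wilson 95% intervals where a pool held no methylated read, and intervals cover counting error only. Fisher tests were tested on simulated data and against scipy, in Python 3.11.15 (numba 0.67.0, numpy 2.4.6, scipy 1.17.1, matplotlib 3.10.9, pandas 2.3.3). Log odds ratios had 0.5 added to each count.

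The members and lists were chosen with earlier results of these data known. Cytosines were named by rule: the 5 highest and 5 lowest in blood against hippocampus, the 5 largest called rises and falls with sGC per tissue, the 10 largest called in both tissues, and the 3 with most reads. Windows and genes were named after values were seen. Gene lists for glucocorticoid signalling, neurons, glia and leukocytes needed an annotation of cavPor3 and were not used here, so the tissues were not checked against marker genes. Alternatives changed the read minimum, the neighbour limit and window, the neighbour count, the coverage, the weighting and the test. Batches and single animals were not analysed here.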

Additional observations from a re-analysis of the deposited data

Results flagged for a closer look

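At 7 isolated cytosines the difference of sGC less Con itself differed between the tissues, by a z test on the difference of log odds ratios adjusted by Benjamini-Hochberg over every cytosine listed in both tables. These were 0.00202% of the members, a smaller share than the 0.0103% called over all cytosines tested. Values below are levels in Con hippocampus, sGC hippocampus, Con blood and sGC blood, followed by the difference in blood less that in hippocampus and the adjusted p. The pools have no replicates, so the test compares pools of reads.

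At DS562856.1, position 22291981, the levels were 60.4%, 62.5%, 62.1% and 91.3%, with 27.1 points between the tissues' differences (adjusted p 0.0013). At DS562859.1, position 1681335, they were 83.3%, 67.6%, 54.7% and 90.9%, with 51.9 points (adjusted p 0.021). At DS562861.1, position 59508210, they were 53.7%, 71.7%, 63.0% and 95.5%, with 14.5 points (adjusted p 0.042). These 3 had a larger rise, or a rise against a fall, in blood.

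At DS562860.1, position 16714861, the levels were 38.1%, 60.5%, 73.0% and 49.7%, with -45.6 points (adjusted p 0.0002). At DS562868.1, position 7266925, they were 76.1%, 79.8%, 50.3% and 18.8%, with -35.3 points (adjusted p 0.018). At DS562883.1, position 20954798, they were 72.6%, 80.4%, 62.0% and 23.4%, with -46.4 points (adjusted p 0.00038). At DS563030.1, position 108278, they were 34.0%, 55.2%, 48.1% and 32.5%, with -36.8 points (adjusted p 0.015). These 4 had lower levels with sGC in blood and higher levels in hippocampus.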

How the results depend on the processing

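Of 140 values recomputed under alternatives, 77 stayed within their limits and 63 moved beyond them. The limit was a fixed factor for counts, and the counting interval of the main value for shares and mean differences. Counts and shares cannot change sign, so a reversal was possible for the mean differences only, and none of these reversed. With no neighbour beyond the same CpG, 6687 members remained in place of 345813, with 60.4% (Con hippocampus) and 75.5% (Con blood) at 80% or more, tissue differences of 6.22 (Con) and 5.93 (sGC) points, and sGC differences of 1.27 (hippocampus) and 0.982 (blood). Calls higher and lower were then 951 and 135 between tissues, 8 and 0 in hippocampus, 12 and 1 in blood, and 4 and 0 in both tissues. With at most 10 neighbours there were 643923 members, 62.2% and 75.9%, differences of 5.62, 5.20, 1.32 and 0.893, and calls of 99089 and 26353, 573 and 316, 1754 and 877, and 195 and 167 in the same order. The shares moved as well with no neighbour, from 3.84% to 2.02% for calls lower in blood than in hippocampus and from 0.114% to 0.0150% for calls lower with sGC in blood, and the cause was not tested. With 50 reads the shares were 63.3% and 77.5% and the differences 5.30 (tissues, sGC), 1.38 and 0.983. With 10 reads they were 63.2% and 77.2%, 5.71 (tissues, Con) and 0.901 (blood). A window of 2000 bp gave 64.3%, 78.4% and 0.941 (blood). Neighbours counted over both tables gave 64.0%, 78.5%, 5.81, 5.38, 1.38 and 0.943. Without the top 1% of coverage, Con hippocampus had 63.7% and the tissue differences were 5.66 and 5.23. Means weighted by reads were 5.91, 5.21, 1.74 and 1.04.

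Divided by the median chi-square of all cytosines over that of chance (1.76 in hippocampus, 1.73 in blood, 3.30 and 3.39 between tissues in Con and sGC), a chi-square test called 17759 and 5157 members between tissues, 49 and 33 in hippocampus, 75 and 53 in blood and 29 and 19 in both tissues. Among the members alone, the excess was 1.42 in hippocampus, 1.51 in blood, and 4.14 and 4.44 between tissues in Con and sGC. The correction was thus stronger than the members' own excess with sGC, and weaker than it between tissues. The cause of the excess was not tested.

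No paired analysis was possible because the reads of the animals are summed within each group, and leaving out a replicate was not possible for the same reason. The depth, a median near 100 reads, limits single cytosines to large differences.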
